A study of Mus musculus with 4 samples.

Results

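Monocytes were described here in dissociated mouse prostate tumours profiled by droplet single-cell RNA sequencing. The cells were selected on the measured expression of a few genes, as raw UMI counts (UMIs are the molecular tags that count captured transcripts). A monocyte had at least 1 UMI of Csf1r, the receptor for colony-stimulating factor 1, and at least 3 UMIs summed over F13a1, Vcan and Ly6c2. It also had fewer than 5 UMIs of the complement genes C1qa, C1qb and C1qc, fewer than 3 of Cd209a, Mgl2 and Clec10a, at most 1 of the T cell receptor genes Cd3d, Cd3e and Cd3g, and fewer than 5 of the fibroblast genes Col1a1 and Dcn. These cuts left 78 monocytes, 2.31% of 3381 cells that had at least 200 genes detected and at most 20% mitochondrial UMIs.

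The 4 libraries came from 2 genotypes, with 2 replicates each. DKO tumours carried the tamoxifen-inducible Nkx3.1CreERT2 driver with floxed alleles that include Smad4 (Smad4L/L), and TKO tumours carried all of these and floxed Pygo2 (Pygo2L/L). The Nkx3.1 promoter drives the recombinase in prostate epithelium, so monocytes are host cells around the targeted epithelium. The series names 10 and 17 weeks after tamoxifen, and the labels do not tie a library to either time, so age cannot be told apart from the other differences between libraries. The labels do not state that the replicates are different animals. The p-values below therefore cover just the variation among these 4 libraries, and that variation may be technical.

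Monocytes are made in bone marrow and enter tissue from blood. Classical mouse monocytes carry high Ly6C and the chemokine receptor Ccr2, while the non-classical form depends on Nr4a1 and carries low Ly6C. In tumours, classical monocytes are a source of macrophages, and as they differentiate they are known to lose monocyte genes and gain genes such as Apoe, Trem2 and the C1q genes. Classical monocytes also respond strongly to interferon.

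The gate gave 14 and 16 monocytes in the first and second DKO replicate, against 27 and 21 in the TKO replicates. Their summed UMIs were 298546, 311285, 572022 and 293781 in that order, and the median monocyte held 18826, 20268.5, 19429 and 17223 UMIs. The smallest monocyte held 9544, 7101, 14027 and 2532 UMIs in the same order, so TKO replicate 2 included the shallowest cells. Every monocyte had its own library's hashtag (the antibody barcode that marked each tumour before pooling) as its highest hashtag, and no barcode was shared between libraries. At the edge of the gate, 5 members had a marker sum of exactly 3 and 1 member a sum of 4, while 17 cells that met every other cut had a sum of 2. The members with a sum of 3 had a median of 6 Csf1r UMIs, and the cells with a sum of 2 had a median of 1.

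The label was checked against its markers. F13a1 (the A subunit of coagulation factor XIII), Vcan (the proteoglycan versican) and Ly6c2 (a Ly6C antigen) chose the members, so their levels are a description: 85.9%, 88.5% and 84.6% of the members had a UMI of each, and 54 of the 78 had all 3. Chil3, a chitinase-like secreted protein, and Plac8, a small cysteine-rich protein, were not used by the gate. Chil3 was found in 66.7% of monocytes, against 18.8% of neutrophils, 4.2% of Cd209a dendritic cells and 1.57% of T cells. Plac8 was found in 91.0% of monocytes, 89.5% of Cd209a dendritic cells, 39.3% of neutrophils and 25.8% of T cells, so it was about as frequent in those dendritic cells as in monocytes. With each cell thinned to 1000 UMIs, the shares with Chil3 were 43.6% in monocytes and 8.12% in neutrophils, and those with Plac8 were 66.7% and 13.7%. The 17 cells that failed only the C1q cut had Chil3 in 47.1% and Plac8 in 82.4%. The 29 that failed only the Cd209a, Mgl2 and Clec10a cut had them in 6.90% and 100%.

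Levels are given as CPM, the UMIs of a gene divided by all UMIs of the class in that library and scaled to 1e6. Chil3 stood at 2087 and 2050 in the DKO monocytes and 1729 and 827 in the TKO monocytes. In C1q macrophages it stood at 102 and 0 in DKO and 44.4 and 629 in TKO. Plac8 stood at 240 and 149 in DKO C1q macrophages and 389 and 1549 in TKO. The last value was above both DKO monocyte values, 1095 and 1150. Lyz2, the myeloid lysozyme, was the most abundant gene, at 13723, 15359, 17176 and 14569 CPM. Ccr2, which draws classical monocytes into tissue, stood at 308 and 524 CPM in DKO against 460 and 514 in TKO, and was found in 88.5% of members against 41.9% of T cells and 1.5% of neutrophils. It was also present in Cd209a dendritic cells, at 131 to 213 CPM, and in C1q macrophages, at 23.5 to 291 CPM. Cells that failed only the C1q cut or only the Cd209a, Mgl2 and Clec10a cut had Ccr2 in 94.1% and 93.1%. Genes of the non-classical form were mixed: Treml4 had 3.35, 3.21, 14.0 and 17.0 CPM and Cd300e had no UMI, while Nr4a1 had a UMI in 78.2% of members and the 16 genes of that list summed to 890 to 1134 CPM.

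**Figure D1:**
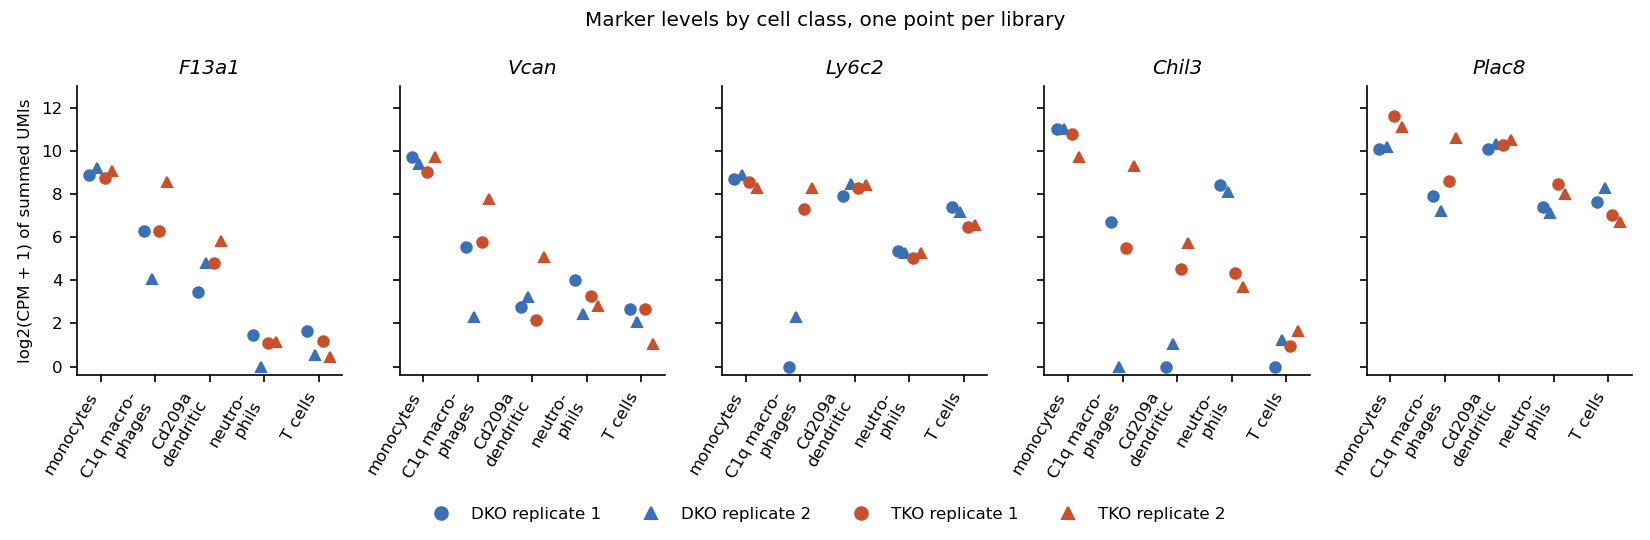
Levels of the 5 marker genes as log2(CPM + 1) of summed UMIs, with 1 point per library for each of 5 cell classes; circles are replicate 1, triangles replicate 2, blue DKO and red TKO. F13a1, Vcan and Ly6c2 chose the monocytes; Chil3 was at 827 CPM or more in every monocyte library, and Plac8 was about as high in Cd209a dendritic cells as in DKO monocytes.

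Other cell types were checked through their marker lists. The mast cell, basophil and erythrocyte lists were at 0 UMIs in all members. The summed neutrophil list stood at 341 to 684 CPM in monocytes; S100a9 had a UMI in 61.5% of monocytes and also in 58.1% of T cells. A UMI of Csf3r, the receptor for granulocyte colony-stimulating factor, was present in 65.4% of monocytes and 18.2% of Cd209a dendritic cells. The fibroblast list stood at 235 to 300 CPM in monocytes and 328 to 409 in T cells; the gate had removed cells with 5 or more UMIs of Col1a1 and Dcn, so the level in monocytes was partly fixed by the rule. For 2 lists the markers were concentrated in single cells: 1 member of TKO replicate 1 held 445 UMIs of the list for Ccr7 dendritic cells, and 1 member of DKO replicate 2 held 79 UMIs of the NK cell list. The levels printed below include both cells, and the Fscn1 value rests on the first of them. Without these 2 cells, 78 named genes kept the direction of their genotype change and their side of the threshold, and none reversed.

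Compared with the other myeloid classes, monocytes are described here with no test, because the gates themselves set part of each difference. Against C1q macrophages, the highest ratios among 1256 genes ranked, gate genes aside, included that of Chil3, at a mean of 1673 against 194 CPM. In TKO replicate 2 alone, Chil3 stood at 827 against 629 CPM. Timp1, an inhibitor of metalloproteinases, stood at 191 against 38.9 CPM. Against Cd209a dendritic cells the leaders included the chemokine Cxcl3 (278 against 3.88 CPM), the scavenger receptor Msr1 (337 against 7.33) and the complement receptor C5ar1 (329 against 7.18). A Cxcl3 UMI was present in only 30.8% of monocytes, and neutrophils held Cxcl3 at 145 to 1557 CPM. Thbs1, or thrombospondin 1, had 4743 CPM in monocytes and 180 in these dendritic cells. Against neutrophils, Ms4a4c (485 against 2.26 CPM), Ccr2 (451 against 2.22) and S100a4 (2311 against 17.3) led after F13a1, Plcb1 and Pld4. The cells gated on Cd209a, Mgl2 and Clec10a were not a pure class, since 27.3% of them had a UMI of Clec9a, a marker of type 1 dendritic cells.

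The share of monocytes did not differ between genotypes beyond the spread of the libraries. Monocytes were 2.27% of kept cells in DKO replicate 1 (14 of 617, 95% exact binomial interval 1.25 to 3.78%), 2.11% in DKO replicate 2 (16 of 759, 1.21 to 3.40%), 2.24% in TKO replicate 1 (27 of 1208, 1.48 to 3.24%) and 2.63% in TKO replicate 2 (21 of 797, 1.64 to 4.0%). These intervals cover counting error only. The genotype ranges overlapped, and the means were 2.19% ± 0.114 in DKO and 2.43% ± 0.283 in TKO (SD, n = 2 each; exact two-sided permutation p = 0.667, a design of 2 libraries against 2 that cannot go below 0.33). As a share of monocytes and C1q macrophages together, monocytes were 14 of 21 and 16 of 25 cells in DKO (66.7% and 64.0%) against 27 of 45 and 21 of 31 in TKO (exact permutation p = 1.0).

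Across all 4390 genes tested on summed monocyte counts, edgeR's quasi-likelihood test called 2 genes at an adjusted p under 0.05, which is 0.0456% of the genes. One was lower and 1 was higher in TKO. At an unadjusted p under 0.05 there were 125 higher genes (2.85%) and 132 lower genes (3.01%), with a median log2 fold change over all genes of -0.004. In simulated monocyte counts with these 4390 genes, the same fit recovered 14.5% of genes changed 2-fold and 79% of those changed 4-fold, so most 2-fold changes could not be seen at this depth. It also called 4 unchanged genes in the 2-fold simulation and 13 in the 4-fold one. Leaving out any 1 library raised the count of called genes, to 38 without DKO replicate 1, 90 without DKO replicate 2, 87 without TKO replicate 1 and 68 without TKO replicate 2.

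Ifi202b (ENSMUSG00000026535, mm10 chromosome 1, 173962568 to 173982744) was the gene lower in TKO. It encodes a DNA-binding protein of the interferon-inducible Ifi200 family, known as an inhibitor of the DNA sensor Aim2. Its UMIs numbered 49 in the DKO replicate 1 monocytes, 88 in DKO replicate 2, 1 in TKO replicate 1 and 0 in TKO replicate 2, or 164, 283, 1.75 and 0 CPM. It was found in 10 of 14 and 14 of 16 DKO monocytes and in 1 of 27 and 0 of 21 TKO monocytes, so the groups did not overlap and no single cell carried it. Over the pooled cells the DKO level was 195 times the TKO level, with a 95% counting interval of 34.3 to 7738 times. The fitted log2 fold change was -7.27 ± 0.67 (SE, as for every log2 change below; n = 2 per group, edgeR adjusted p = 0.0035), and the call held in 11 of 12 alternatives, the exception being the 27 monocytes with no Csf3r UMI (highest adjusted p of 0.66).

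Ifi202b was also low in the TKO libraries of other cell classes. In Cd209a dendritic cells it stood at 67.1 and 72.5 CPM in DKO against 0.68 and 1.30 in TKO, and in neutrophils at 16.7 and 39.0 against 1.14 and 3.55. C1q macrophages had 76.6 and 35.3 CPM in DKO against 0 and 31.2 in TKO, where the last value came from 6 UMIs, and T cells had 3.26 and 43.5 CPM in DKO against 2.24 and 0.72 in TKO, so 1 DKO library lay near the TKO values and the other far above them. The TKO against DKO change in monocytes minus that in Cd209a dendritic cells was -1.38 ± 1.76 on the log2 scale, and against neutrophils it was -3.57 ± 1.30 (SE, edgeR adjusted p = 1.0 and 0.98). No difference between classes was therefore called, within intervals this wide.

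Chil1 (ENSMUSG00000064246, mm10 chromosome 1, 134182176 to 134190181) was the gene higher in TKO. It encodes a secreted chitinase-like glycoprotein related to Chil3. The monocytes held 1, 0, 90 and 42 UMIs of it in the 4 libraries, or 3.35 and 0 CPM in DKO against 157 and 143 in TKO. A UMI was present in 1 of 14 and 0 of 16 DKO monocytes, and in 21 of 27 and 12 of 21 TKO monocytes. Pooled, the TKO level was 93.0 times the DKO level (95% counting interval 16.4 to 3700 times), and the fitted log2 fold change was 6.21 ± 0.67 (SE, n = 2 per group, edgeR adjusted p = 0.0082). The call held in 10 of 12 alternatives and was lost in the monocytes without a Csf3r UMI and with the replicate number as a block, while the log2 fold change lay between 5.31 and 8.88 in every alternative.

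Neutrophils, by contrast with monocytes, held Chil1 in all 4 libraries, at 109 and 193 CPM in DKO against 215 and 232 in TKO. C1q macrophages had no Chil1 UMI in DKO, against 14 and 13 UMIs (25.9 and 67.6 CPM) in TKO. The summed neutrophil marker list in monocytes was 372 and 382 CPM in DKO against 341 and 684 in TKO, so the genotypes overlapped, and its part in the Chil1 result was not tested. The difference of the genotype change between monocytes and neutrophils was 5.94 ± 0.82 (edgeR adjusted p = 0.074), short of the threshold.

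**Figure D2:**
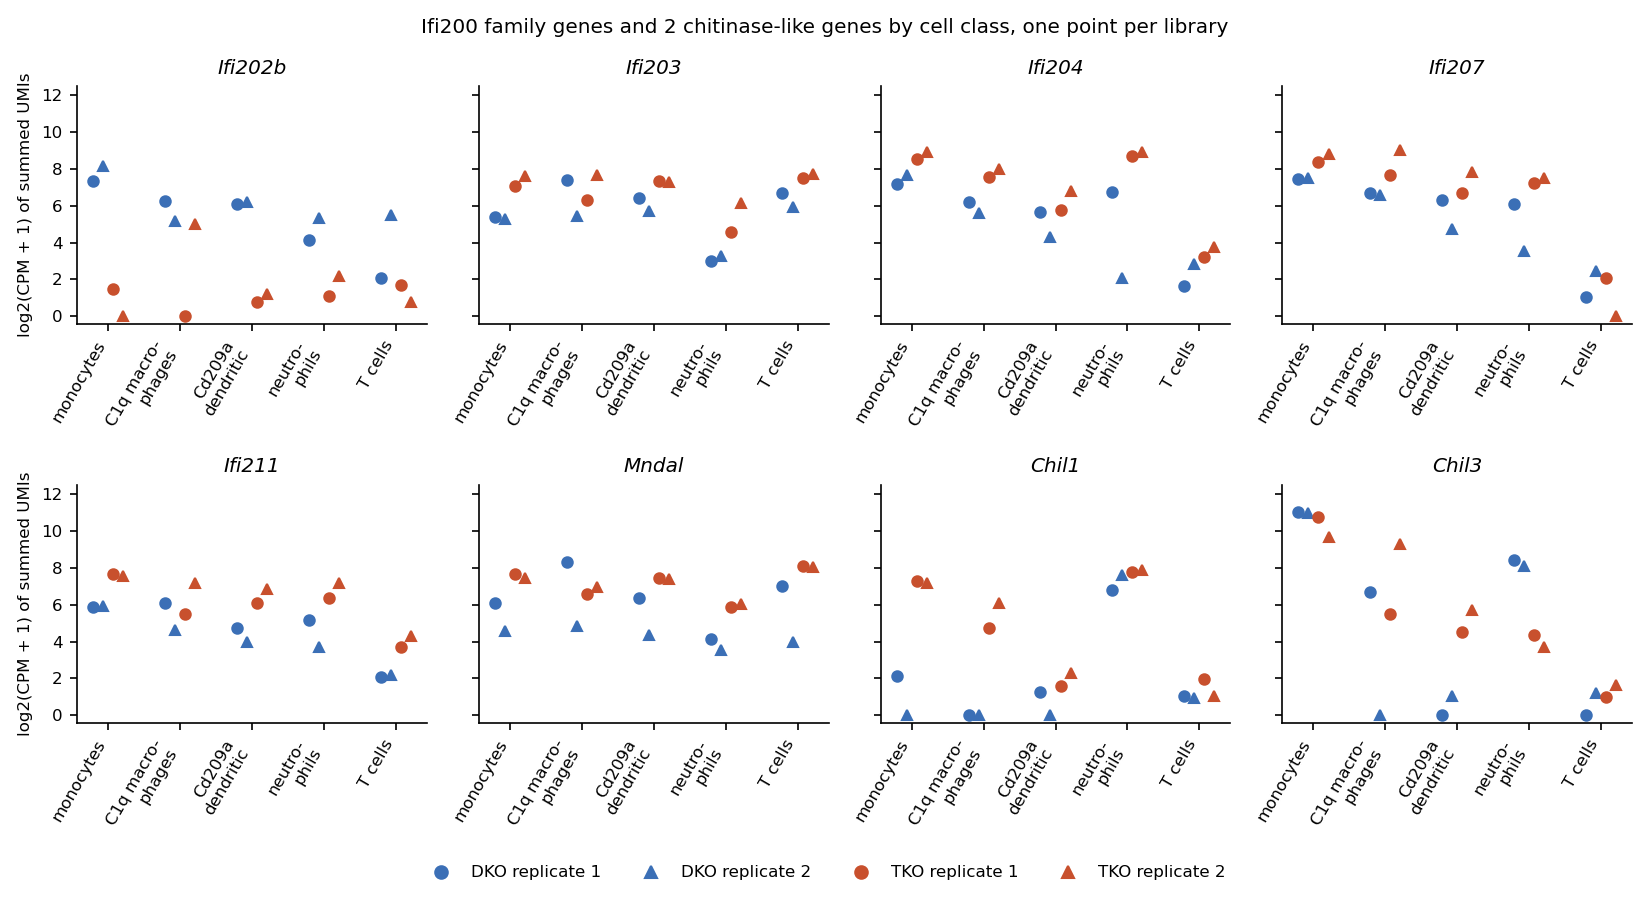
Levels of 6 Ifi200 family genes, Chil1 and Chil3 as log2(CPM + 1) of summed UMIs in 5 cell classes, with 1 point per library (circles replicate 1, triangles replicate 2, blue DKO, red TKO). In monocytes Ifi202b stands at 164 and 283 CPM in DKO against 1.75 and 0 in TKO, the other 5 Ifi200 genes lie higher in both TKO libraries, and Chil1 is at 3.35 CPM or less in both DKO libraries.

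The rest of the Ifi200 family lay in the opposite direction to Ifi202b. These genes stand side by side on chromosome 1 and encode proteins with a HIN domain that binds DNA; several are induced by interferon. Of the 8 members tested, 7 were higher in TKO and Ifi202b was lower, with a median log2 fold change of 1.47 against -0.004 over all genes. The 7 all had an unadjusted p under 0.05, a share of genes that was 2.85% overall in that direction, and none passed adjustment. Ifi203 stood at 40.2 and 38.6 CPM in DKO against 135 and 194 in TKO (log2 1.98 ± 0.37, SE, edgeR adjusted p = 0.17). Ifi211 stood at 56.9 and 61.0 CPM against 201 and 191, and Ifi204 at 144 and 199 against 371 and 483. For each of these genes both TKO libraries lay above both DKO libraries in summed CPM, as they did for 19.9% of all genes. In the median cell Ifi211 and Ifi204 kept this order. The median cell of Ifi203 overlapped between genotypes, at 24.9 and 0 CPM in DKO against 77.3 and 0 in TKO.

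Mndal, Ifi205, Ifi207 and Ifi209 completed the group. Mndal stood at 67.0 and 22.5 CPM in DKO against 203 and 174 in TKO (2.03 ± 0.46). Ifi207 stood at 174 and 183 against 336 and 446 CPM (1.07 ± 0.30), and Ifi209 at 87.1 and 93.2 against 147 and 180 (0.80 ± 0.32). The median cell of Ifi209 overlapped, at 49.2 and 66.2 CPM in DKO against 124 and 57.1 in TKO. The median cells of Mndal and Ifi207 did not overlap. Ifi205 rested on few molecules, with 3 UMIs in the DKO monocytes and 50 in the TKO monocytes, a pooled ratio of 11.7 with a counting interval of 3.79 to 58.8 times. Mndal overlaps both Ifi211 and Ifi203 on the same strand, and the family is near-identical in places, so reads could be split between these genes, and their separate values are uncertain. Expression and copy number of this family are known to differ between inbred mouse strains; strain was not tested.

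The promoters of this family are shown because most of its tested members were high together in TKO while Ifi202b was not. In the 250 bases before the annotated start (RefSeq, GRCm38.p6), both strands were searched for GAAANNGAAA, the core of the element through which interferon-activated factors bind. It was present in 2.98% of 32851 promoter windows, and in 9 of the 12 Ifi200 family genes that have a window: Ifi203, Ifi205, Ifi206, Ifi207, Ifi208, Ifi211, Ifi213, Ifi214 and Mndal. It was not found for Ifi202b, Ifi209 or Aim2. The last 150 bases before the start are printed 5′ to 3′ on the gene's strand, with matches in capitals. Isg15, which encodes an interferon-induced ubiquitin-like protein, is given for comparison with 3 overlapping matches.
Ifi203 (chr1:173942493-173942642, minus strand, the downstream of 2 annotated starts): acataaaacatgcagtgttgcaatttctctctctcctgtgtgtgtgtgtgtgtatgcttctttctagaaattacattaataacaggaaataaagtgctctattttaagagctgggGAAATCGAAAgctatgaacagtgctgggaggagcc
Ifi207 (chr1:173741810-173741959, minus strand): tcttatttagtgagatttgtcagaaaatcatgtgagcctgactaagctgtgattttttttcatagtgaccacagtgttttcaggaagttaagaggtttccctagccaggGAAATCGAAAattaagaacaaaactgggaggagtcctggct
Ifi211 (chr1:173913047-173913196, minus strand): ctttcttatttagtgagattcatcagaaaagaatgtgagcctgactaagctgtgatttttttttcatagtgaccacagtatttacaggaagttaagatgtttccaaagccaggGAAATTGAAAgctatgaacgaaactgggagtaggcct
Ifi202b (chr1:173982845-173982994, minus strand): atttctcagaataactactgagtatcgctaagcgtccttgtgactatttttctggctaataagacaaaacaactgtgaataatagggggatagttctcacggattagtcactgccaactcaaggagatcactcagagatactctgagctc
Ifi209 (chr1:173630709-173630858, plus strand): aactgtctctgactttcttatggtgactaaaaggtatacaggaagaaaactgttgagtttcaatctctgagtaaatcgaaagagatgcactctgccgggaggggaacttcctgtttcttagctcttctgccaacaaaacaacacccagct
Isg15 (chr4:156200819-156200968, minus strand): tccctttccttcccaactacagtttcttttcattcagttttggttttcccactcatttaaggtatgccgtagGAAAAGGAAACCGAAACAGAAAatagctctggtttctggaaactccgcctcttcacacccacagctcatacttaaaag

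In Ifi203, Ifi207 and Ifi211 the match begins 35, 41 and 37 bases before the start, so it lies at nearly the same distance in these 3 neighbours. Ifi209, whose window holds no such match, was higher in TKO as well. A match is a description of letters in the reference genome and says nothing about binding in these cells.

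Genes of the type I interferon response lay above 0 throughout, without a call. All 18 tested genes of the list had a higher fitted level in TKO, with a median log2 fold change of 0.85, while 2173 of all 4390 genes lay above 0. Both TKO libraries were above both DKO libraries for 12 of the 18 (19.9% of all genes), and 4 had an unadjusted p under 0.05 (2.85% of all genes in that direction): Slfn5, Trim30a, Irf7 and Slfn4. Slfn4 was found in 8 of 14 and 6 of 16 DKO monocytes and in 11 of 27 and 6 of 21 TKO monocytes. One cell held 36.8% of its UMIs. The median cell of Slfn5 and of Trim30a did not overlap between genotypes. Slfn5, a member of the Schlafen family, stood at 174 and 157 CPM in DKO against 269 and 524 in TKO (1.19 ± 0.37, edgeR adjusted p = 0.49). Irf7, the transcription factor that amplifies type I interferon, stood at 70.3 and 109 CPM against 168 and 157. Its median cell overlapped, at 55.0 and 47.0 CPM in DKO against 52.9 and 102 in TKO. Isg15 had 93.8 CPM in DKO replicate 1 and 498 in DKO replicate 2, against 603 and 507 in TKO replicates 1 and 2 (0.87 ± 0.65). The second DKO library thus lay just below the TKO values, but single cells held much of these sums. In DKO replicate 2, 1 cell held 118 of the 155 Isg15 UMIs. In TKO replicates 1 and 2, single cells held 159 of 345 and 60 of 149. The cell with 60 had 5093 UMIs in all, 3 of them Ly6c2, and none of F13a1, Vcan, Chil3, Plac8 or Ccr2. It gave 4.22% of its UMIs to the type I interferon list. Another TKO replicate 2 cell, with 3766 UMIs and 5 of Ly6c2, lacked the same genes and gave 1.73% to the list. The median cell of Isg15 overlapped between genotypes, at 0 and 108 CPM in DKO against 128 and 57.0 in TKO.

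The same direction was seen per cell. The median monocyte gave 0.0996% and 0.0893% of its UMIs to the type I interferon list in DKO, against 0.157% and 0.145% in TKO. Ifi27l2a, an interferon-induced gene outside that list, stood at 1122 and 822 CPM in DKO against 2152 and 2012 in TKO (1.05 ± 0.25, edgeR adjusted p = 0.27). Ifitm3, which blocks entry of viruses, stood at 2686 and 2882 CPM against 4549 and 4221 (0.61 ± 0.20, adjusted p = 0.59). Of the interferon gamma list only 4 of 22 genes had enough counts to be tested; Irf1 stood at 40.2 and 25.7 CPM in DKO against 83.9 and 133 in TKO (1.63 ± 0.44, adjusted p = 0.42).

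Classical monocyte genes as a group lay on both sides of 0. Of 18 tested, 10 lay above and 8 below, with a median log2 fold change of 0.05. Without F13a1, Vcan and Ly6c2, which chose the members, 10 of 15 lay above and 5 below, with a median of 0.15. Plac8 stood at 1095 and 1150 CPM in DKO against 3110 and 2213 in TKO, and the 2 groups did not overlap (1.20 ± 0.25, edgeR adjusted p = 0.19). The median monocyte had 1331 and 987 CPM of Plac8 in DKO and 2392 and 1434 in TKO, so in the median cell too both TKO values were above both DKO values. The share of monocytes with a Plac8 UMI was 85.7% (12 of 14) and 93.8% (15 of 16) in DKO and 100% (27 of 27) and 81.0% (17 of 21) in TKO, ranges that overlap (exact permutation p = 1.0).

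Some other classical genes lay lower in TKO. Fn1, which encodes fibronectin, stood at 1601 and 1911 CPM in DKO against 998 and 902 in TKO (-0.93 ± 0.23, edgeR adjusted p = 0.34), without overlap. Chil3 was also below the DKO values in both TKO libraries (-0.73 ± 0.33, edgeR adjusted p = 0.85). Its median cell overlapped between genotypes, at 630 and 1340 CPM in DKO against 706 and 57.0 in TKO. F13a1, at 466 and 591 CPM against 428 and 531, and Vcan, at 824 and 662 against 514 and 841, overlapped between genotypes. Ly6c2 stood at 415 and 469 CPM in DKO against 376 and 313 in TKO. These 3 genes chose the members, so their levels are given with no test.

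The Ly6c2 promoter is printed because it was the one among the 5 marker genes with the sequence GAGGAAGT, a motif bound by PU.1, the factor encoded by Spi1 that sets the myeloid lineage. That sequence was found, on either strand, in 2.44% of all 250-base windows, and not in those of F13a1, Vcan, Chil3 or Plac8. Spi1 itself stood at 459 and 389 CPM in DKO monocytes and 549 and 504 in TKO monocytes.
Ly6c2 (chr15:75111972-75112121, minus strand, GRCm38.p6, RefSeq, motif in capitals): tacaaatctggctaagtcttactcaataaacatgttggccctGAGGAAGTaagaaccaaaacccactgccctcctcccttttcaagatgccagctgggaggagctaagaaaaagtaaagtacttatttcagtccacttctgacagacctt

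Among monocyte transcription factors, 11 of 17 tested genes lay above 0 and 6 below (median 0.11), with none called. Runx1, a factor of blood cell development, stood at 663 and 678 CPM in DKO against 986 and 1249 in TKO (0.68 ± 0.25, edgeR adjusted p = 0.66). Nr4a1, the factor of non-classical monocytes, stood at 194 and 138 against 226 and 395. Its median cell overlapped between genotypes, at 109 and 79.5 CPM in DKO against 61.9 and 162 in TKO. Nr4a1 is also in the immediate early list, and neutrophils held it at 413 to 537 CPM. Klf4 and Cebpb overlapped: Klf4 had 245 and 328 CPM in DKO against 323 and 296 in TKO, and Cebpb 3474 and 2316 against 3329 and 2604.

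Most genes of macrophage differentiation had fitted values below 0 in TKO, with none called. Of 16 tested, 12 lay below 0 and 4 above, with a median of -0.94. Of them, 7 had an unadjusted p under 0.05 in the lower direction, a result found in 3.01% of all genes, and none passed adjustment. Apoe, the lipid carrier, stood at 6491 and 5040 CPM in DKO against 1792 and 2522 in TKO (-1.47 ± 0.24, SE, n = 2 per group, edgeR adjusted p = 0.14). The genotypes did not overlap, and the level of the median cell showed the same order, at 3964 and 5322 CPM in DKO against 1451 and 871 in TKO. Leaving out any 1 library raised the number of called genes in general, so those fits add no support for Apoe.

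Of the other genes with the smallest p in that list, 3 encode lysosomal proteases. Lgmn, or legumain, stood at 556 and 655 CPM in DKO against 320 and 310 in TKO (-0.99 ± 0.28), and Ctsd, or cathepsin D, at 657 and 643 against 350 and 368 (-0.91 ± 0.27). Ctsb stood at 1367 and 1243 against 776 and 916 CPM. The edgeR adjusted p of these 3 genes ranged from 0.44 to 0.62. The protease gene Ctsl of the same list stood at 489 and 434 against 313 and 337 CPM (-0.56, unadjusted p = 0.075), and Ctss, from the MHC class II list, at 2288 and 1995 against 1956 and 1794 (-0.24, unadjusted p = 0.30, both edgeR). Adgre1, which encodes F4/80, stood at 228 and 225 against 140 and 204 CPM (-0.46, edgeR adjusted p = 0.94), and Cd68, a lysosomal glycoprotein, overlapped between genotypes at 322 and 238 against 320 and 293 CPM.

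Some macrophage genes with large folds were carried by few cells. Cd63, a tetraspanin of late endosomes, stood at 667 and 247 CPM in DKO against 52.4 and 88.5 in TKO (-2.79 ± 0.52), yet it was found in only 3 of 14 and 7 of 16 DKO monocytes and in 15 of 27 and 12 of 21 TKO monocytes. One cell held 30.1% of all its UMIs. Acp5, the tartrate-resistant acid phosphatase, stood at 600, 122, 5.24 and 6.81 CPM, with 42.3% of its UMIs in 1 cell. Ms4a7 was found in 4 and 5 DKO monocytes and in 2 and 0 TKO monocytes, at 164, 35.3, 3.50 and 0 CPM. The sums for these genes were thus set by a minority of DKO cells. For Apoe too, single cells of DKO replicate 1 held 606 and 455 of its 1938 UMIs in that library, although the median Apoe values did not overlap between genotypes.

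Per cell, the median share of UMIs from the macrophage differentiation list was 0.798% and 0.963% in DKO and 0.436% and 0.430% in TKO, without overlap, beside a median of 2.15% in C1q macrophages. Within DKO replicate 1 the members with few classical monocyte UMIs had many macrophage and MHC class II UMIs: over its 14 cells, Spearman's rho of the classical list was -0.73 with the macrophage list and -0.78 with the class II list. The same relations were 0.09 and -0.19 over the 16 cells of DKO replicate 2, 0.13 and -0.55 over the 27 of TKO replicate 1, and 0.27 and 0.39 over the 21 of TKO replicate 2. These are descriptions across cells that share a library, and the lists compete for the same UMIs.

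**Figure D3:**
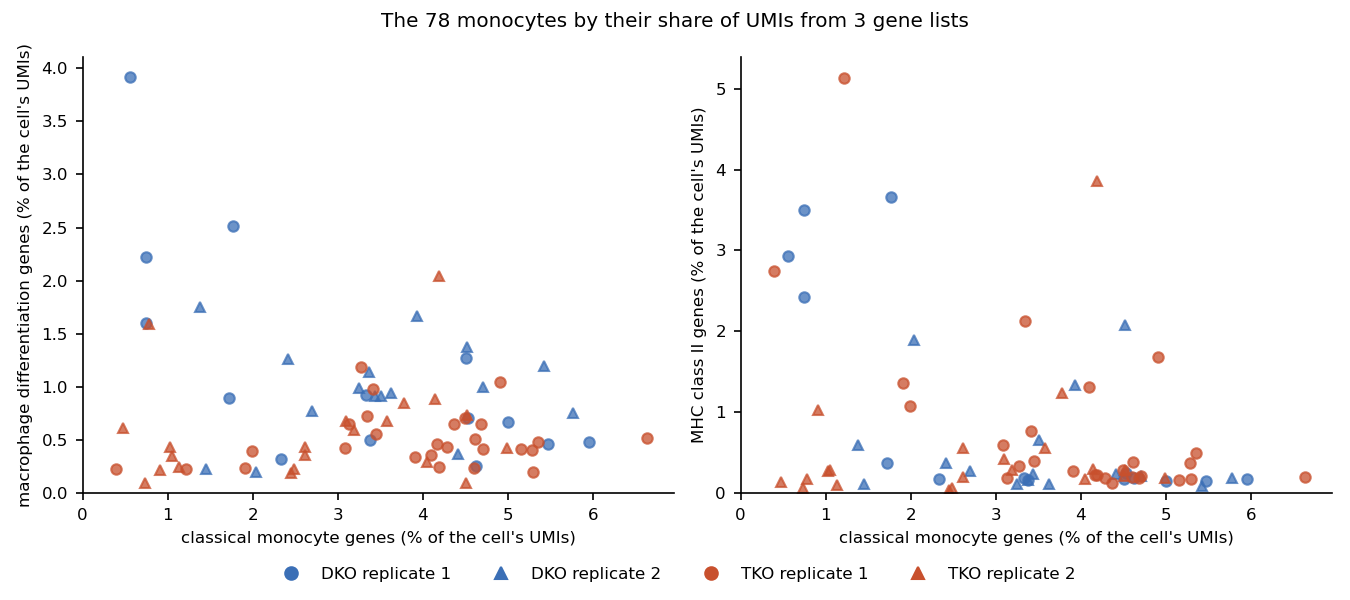
Each point is 1 of the 78 monocytes, placed by the percentage of its UMIs from the classical monocyte list (x axis) and from the macrophage differentiation list (left) or the MHC class II list (right); circles are replicate 1, triangles replicate 2, blue DKO and red TKO. A few DKO replicate 1 cells lie at the upper left of both panels, and the median macrophage share is 0.798% and 0.963% in DKO and 0.436% and 0.430% in TKO.

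MHC class II genes, which present peptides to CD4 T cells, all had fitted values below 0 in TKO: 7 of 7 tested, median -0.42, none with an unadjusted p under 0.05. H2-Aa stood at 2027 and 848 CPM in DKO against 890 and 742 in TKO, and Cd74, the invariant chain, at 4663 and 2249 against 3348 and 1998, which overlap. Without DKO replicate 1 the signs of Cd74 and H2-Ab1 turned, to 0.23 and 0.36. Single cells held many of these UMIs. Summed over H2-Aa, H2-Ab1, H2-Eb1 and Cd74, 1 cell of TKO replicate 1 had 1158 and 1 cell of DKO replicate 1 had 981. In the median cell, this list took 0.187% and 0.230% of UMIs in DKO against 0.341% and 0.277% in TKO, the opposite order to the sums. The share of monocytes with at least 3 UMIs of H2-Aa, H2-Ab1, H2-Eb1 and Cd74 was 64.3% and 81.3% in DKO and 85.2% and 76.2% in TKO (exact permutation p = 0.667). Part of these UMIs was background, since 37.4% of T cells had an H2-Ab1 UMI against 61.5% of monocytes, and 3.99% against 26.9% after thinning to 1000 UMIs.

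Most iron storage and glycolysis genes had fitted values below 0, with none called. Of 15 iron and oxidative stress genes tested, 11 lay below 0 (median -0.30). Fth1, the ferritin heavy chain, stood at 16108 and 12583 CPM in DKO against 7788 and 7131 in TKO (-0.99 ± 0.21, edgeR adjusted p = 0.19), and Ftl1, the light chain, at 7131 and 4693 against 3332 and 3452. The median cell did not show this order for either chain, with Fth1 at 4205 and 9074 CPM in DKO against 6125 and 6450 in TKO, and Ftl1 at 3293 and 2921 against 3312 and 2945. One cell held 17.1% of the Fth1 UMIs. Gclm, a subunit of the enzyme that starts glutathione synthesis, stood at 127 and 64.3 CPM against 19.2 and 20.4 (-2.31 ± 0.50, adjusted p = 0.20). It was found in 7 of 14 and 3 of 16 DKO monocytes and in 9 of 27 and 5 of 21 TKO monocytes. One cell held 24.0% of the Gclm UMIs. Hmox1, or heme oxygenase 1, stood at 131 and 61.0 against 33.2 and 51.1 CPM.

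Of 21 genes of glycolysis and hypoxia tested, 17 lay below 0 (median -0.30), and 4 had an unadjusted p under 0.05 in that direction, against 3.01% of all genes. Mif, a cytokine that is induced by hypoxia, stood at 623 and 363 CPM in DKO against 222 and 184 in TKO (-1.32 ± 0.35, edgeR adjusted p = 0.39), but its median cell overlapped, at 170 and 90.6 against 154 and 114 CPM. Slc2a1, the glucose transporter Glut1, stood at 174 and 122 CPM against 83.9 and 78.3. Gapdh had 2070 and 1169 CPM in DKO against 1035 and 817 in TKO, and its median cell overlapped too, at 955 and 768 against 946 and 487. In lipid handling, a list that shares Apoe with the macrophage list, 6 of 9 tested genes lay below 0 (median -0.09); Plin2, which coats lipid droplets, stood at 462 and 382 CPM against 283 and 225.

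**Figure D4:**
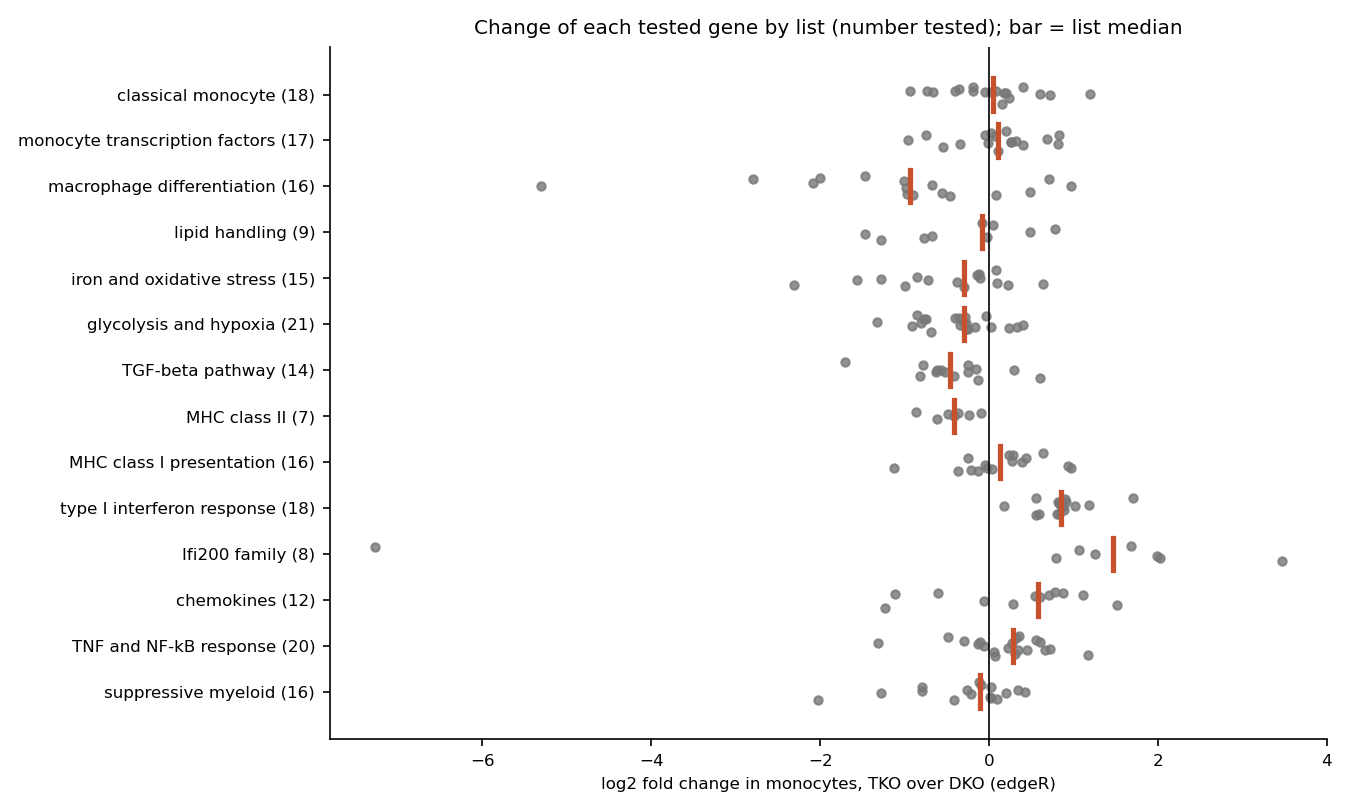
Fitted log2 fold change (TKO over DKO) of each tested gene in 14 gene lists, with the number of tested genes in brackets; each grey point is 1 gene, spread vertically at random for legibility, and the red bar is the list's median. The type I interferon genes all lie right of 0 (median 0.85), 12 of 16 macrophage differentiation genes lie left (median -0.94), and Ifi202b lies alone at -7.27. The classical monocyte list includes F13a1, Vcan and Ly6c2, which chose the members.

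Signalling molecules gave mixed directions. Of 12 chemokines tested, 8 lay above 0 and 4 below (median 0.58), and Cxcl3 and Cxcl16, both lower, had an unadjusted p under 0.05 (3.01% of all genes in that direction). Cxcl3, a neutrophil attractant, stood at 499 and 254 CPM in DKO against 185 and 174 in TKO (-1.12 ± 0.37, edgeR adjusted p = 0.59). It was found in 24 monocytes, its median cell had 0 CPM in every library, and 1 cell held 18.4% of its UMIs. Cxcl16 stood at 338 and 170 against 142 and 74.9 CPM (-1.24 ± 0.43, edgeR adjusted p = 0.62). Ccl9 lay the other way, at 710 and 671 CPM against 909 and 1178. Cxcl2 and Il1b, among the 25 most abundant genes, overlapped, at 2686 and 4305 against 2914 and 3996 CPM and at 5446 and 3280 against 7346 and 4211. Il18, a cytokine of the interleukin 1 family, stood at 16.7 and 22.5 CPM in DKO against 62.9 and 37.4 in TKO (1.34 ± 0.54).

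Of 20 genes of the TNF and NF-kB response, 14 lay above 0 and 6 below (median 0.29). Cd83 stood at 224 and 485 CPM in DKO against 753 and 895 in TKO (1.17 ± 0.36, edgeR adjusted p = 0.48), while Sdc4, a heparan sulfate proteoglycan, stood at 154 and 235 against 66.4 and 98.7 (-1.31 ± 0.36, adjusted p = 0.44). Some receptors lay lower in both TKO libraries: C3ar1, the receptor for the complement fragment C3a, stood at 63.6 and 83.5 CPM against 21.0 and 30.6, and Fcgr3, a receptor for IgG, at 529 and 437 against 306 and 296. Among sensing and Fc receptor genes 10 of 16 tested lay below 0 (median -0.20). Mmp14, a membrane-bound metalloproteinase, stood at 161 and 93.2 CPM in DKO against 17.5 and 0 in TKO (-3.54 ± 0.72, adjusted p = 0.19), with 26.4% of its UMIs in 1 cell.

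In the suppressive myeloid list, 7 of 16 tested genes lay above 0 and 9 below (median -0.11). Arg1, which depletes arginine, was found in 3 of 14 and 3 of 16 DKO monocytes (21.4% and 18.8%), in 6 of 27 TKO replicate 1 monocytes (22.2%) and in 0 of 21 of TKO replicate 2, a count of 0 that allows a share of cells with a captured Arg1 UMI of up to 14.3%. The genotypes overlapped (exact permutation p = 1.0), and 1 cell held 43.8% of all Arg1 UMIs. An Arg1 UMI was also found in 3.42% of T cells, against 15.4% of all monocytes. Havcr2, the checkpoint receptor Tim-3, stood at 151 and 161 CPM in DKO against 101 and 81.7 in TKO, and Il4ra at 245 and 190 against 147 and 109; neither passed (edgeR adjusted p = 0.76 and 0.78).

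The engineered pathways were read in the monocytes themselves. Pygo2 had 1, 1, 7 and 1 UMIs in the 4 libraries, and since the recombinase is driven in epithelium these counts do not check the labels. Smad4 stood at 77.0 and 73.9 CPM in DKO against 71.7 and 68.1 in TKO. Of 14 TGF-beta pathway genes tested, 12 lay below 0 (median -0.47), and for 5 of them both TKO values were under both DKO values, as for 15.4% of all genes. Pmepa1, a TGF-beta target that dampens the pathway, stood at 137 and 122 CPM against 57.7 and 17.0 (-1.70 ± 0.47, edgeR adjusted p = 0.44), and Tgfbi at 1625 and 1420 against 1212 and 899 (-0.57 ± 0.25, adjusted p = 0.82).

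The genes with the smallest p that did not pass adjustment were ranked next. Lower in both TKO libraries were, besides those named, Sgk1, Ecm1, Rai14, Grina, Ramp1, Pla2g7 and Bcor, with log2 fold changes from -3.74 for Ramp1 to -1.24 for Pla2g7. Ecm1, an extracellular matrix protein, stood at 171 and 202 CPM in DKO against 43.7 and 61.3 in TKO, and Pla2g7, which inactivates platelet-activating factor, at 653 and 623 against 252 and 310. Higher were Nhlrc2, Mapkapk3, Edil3, Tbc1d8, Herc6, Gda and Ramp3. Mapkapk3, a kinase downstream of p38, stood at 87.1 and 86.7 CPM against 226 and 306, and Gda, or guanine deaminase, at 375 and 517 against 906 and 1011. Edil3 and Tbc1d8 rested on single cells, which held 72.7% and 63.2% of their UMIs. In Ramp3 and Sgk1 1 cell held 37.8% and 33.2%, and the median cell for Sgk1 overlapped between genotypes, at 19.9 and 75.1 against 55.7 and 0 CPM.

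**Figure D5:**
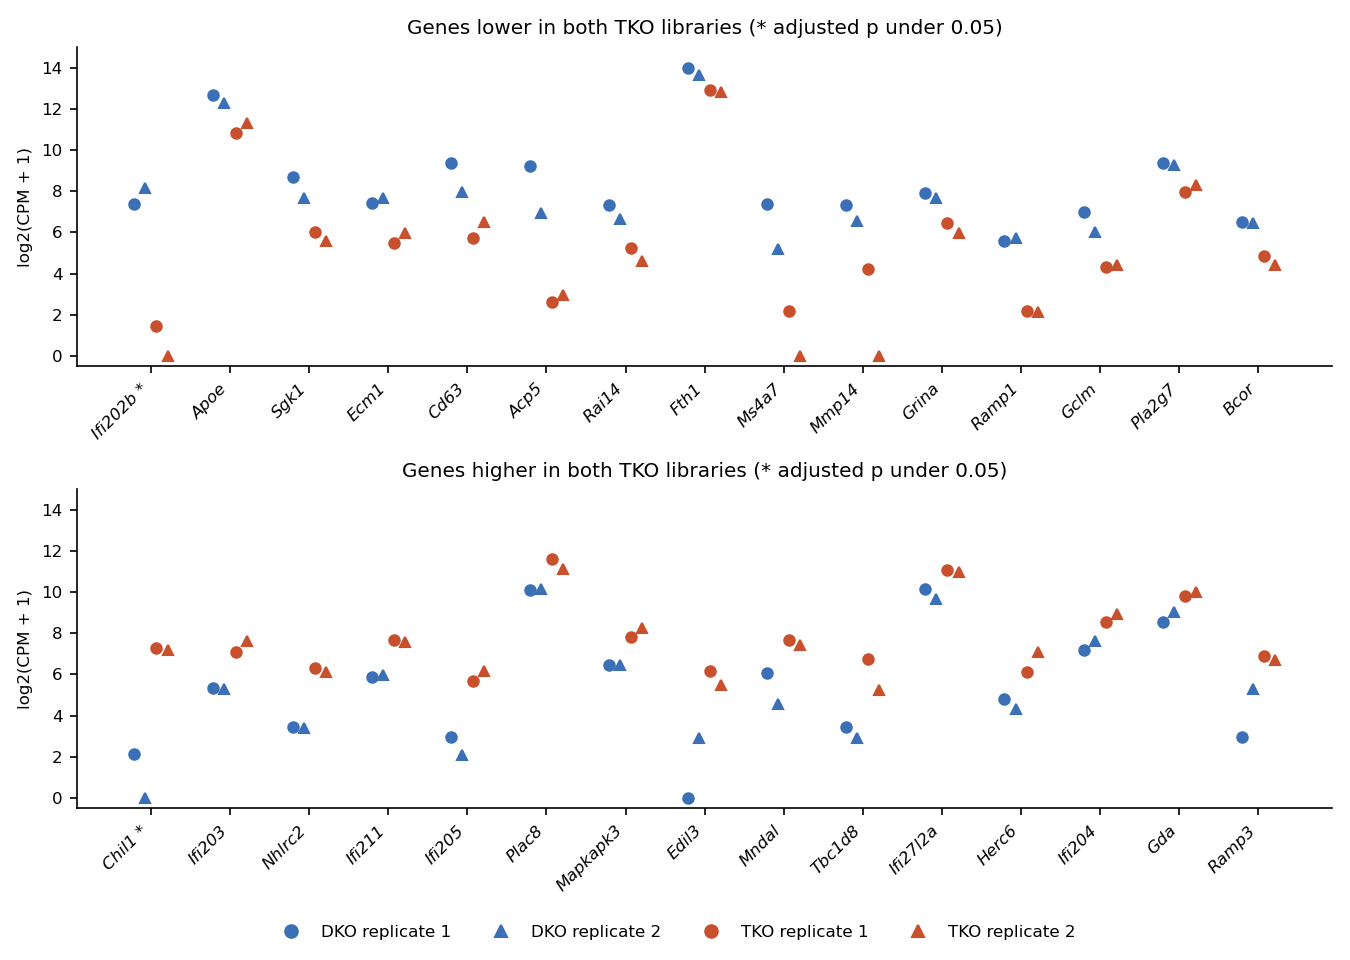
Levels in monocytes, as log2(CPM + 1) of summed UMIs, of the 15 lower and 15 higher genes with the smallest p among genes whose libraries do not overlap, with 1 point per library (circles replicate 1, triangles replicate 2, blue DKO, red TKO). A star marks Ifi202b and Chil1, the 2 genes with an adjusted p under 0.05; the other 28 did not pass.

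The genotype change in monocytes was tested against the change in 2 other classes. Against neutrophils, 1 gene of 7300 was called (0.0137%): Chil3 stood at 343 and 273 CPM in DKO neutrophils and 19.4 and 11.8 in TKO neutrophils, against 2087 and 2050 and then 1729 and 827 in monocytes (difference of log2 changes 3.71 ± 0.35, SE, edgeR adjusted p = 0.0067). Against Cd209a dendritic cells, 2 of 7291 genes were called (0.0274%). In simulations of this comparison, 3 unchanged genes were called with 2-fold changes and 6 with 4-fold changes. Slpi, an inhibitor of leukocyte proteases, stood at 1357 and 781 CPM in DKO monocytes and 598 and 242 in TKO monocytes, and at 44.3 and 24.8 against 118 and 93.7 in the dendritic cells (-3.09 ± 0.44, adjusted p = 0.0028). Its median monocyte overlapped between genotypes, at 199 and 104 CPM in DKO against 140 and 114 in TKO. One cell held 19.8% of the Slpi UMIs of monocytes. The other, Fscn1, an actin-bundling protein of Ccr7 dendritic cells, had all its 32 monocyte UMIs in the 1 member of TKO replicate 1 with dendritic markers, and the call was lost without that cell. Slpi was most abundant in neutrophils, at 747 to 1758 CPM, beside the neutrophil list values given above, whose part in the Slpi result was not tested.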

How the data were processed

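The 4 libraries (DKO and TKO, 2 each) were hashtagged, pooled and loaded together as 10x 3′ v3.1 libraries, per the labels' protocols. Counts were made with Cell Ranger 7.0.0 and STAR on mm10, per the submitters' processing notes, and the authors deposited them as raw UMI counts per gene and cell; the files hold 3508 barcodes and 32285 genes. Members and gene lists were chosen with earlier results of these data known. Raw counts were summed per library and class and fitted with edgeR 4.0.16 (TMM scaling, low-count filter, robust quasi-likelihood test, Benjamini-Hochberg adjustment over all genes tested), in R 4.3.3; DESeq2 1.42.0 was an alternative. CPM are a gene's counts over a class's summed counts, times 1e6. Differences between classes were fitted as an interaction with library as block, for classes with at least 10 cells per library; the one with C1q macrophages (7 and 9 cells in the DKO libraries) was not fitted. Shares were compared by exact permutation over libraries. Named genes were the markers, the 15 with the smallest p each way among genes whose libraries did not overlap and that reached 20 CPM, up to 4 members of each list by p and 4 by level, up to 5 genes of each interaction, and the 15 highest ratios to each class; predicted genes were left out. No doublet caller was run. Libraries of the same genotype differed by more than counting noise (chi-square per degree of freedom 4.50 and 4.99). Scripts were tested on simulated data. Sequences came from RefSeq promoter windows (GRCm38.p6); exons from GENCODE M21 were kept out of the printed stretches. Mx1, Mnda and Clec7a were not analysed here. Some genes and one of the floxed alleles are not reported here.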

Additional observations from a re-analysis of the deposited data

Results flagged for a closer look

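These 3 genes were picked out because their genotype change in monocytes differed, by a tested interaction in edgeR, from the change in another class. Chil3 had a log2 change 3.71 higher in monocytes than in neutrophils (± 0.35 SE), and the call held in 9 of the 10 alternatives. Slpi had a log2 change of -3.09 relative to Cd209a dendritic cells (± 0.44), also held in 9 of 10. The median monocyte overlapped between genotypes for both Chil3 and Slpi, and 1 cell held 19.8% of the monocyte UMIs of Slpi. Fscn1 had a difference of 9.01 (± 1.54) to the same dendritic cells and rests on 1 cell of TKO replicate 1 with 32 UMIs.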

How the results depend on the processing

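The number of genes called between genotypes in monocytes was 2 as reported, 81 with no filter on low counts, 9 with DESeq2, 4 with a marker sum of at least 5, 3 with the replicate number as a block, and 38 to 90 when 1 library was left out. In the monocytes without a Csf3r UMI (5, 7, 6 and 9 cells) edgeR called 0 genes, with 102 at an unadjusted p under 0.05. That setting tests fewer cells and genes; the cause of the other changes was not tested. For the difference from Cd209a dendritic cells, 29 genes were called with no filter, 1 with DESeq2, 1 with a marker sum of at least 5, 1 without the 2 members that carry another type's markers (an alternative chosen after seeing the data), 0 without Csf3r cells (264 at an unadjusted p under 0.05), and 19 to 60 without 1 library. For the difference from neutrophils the counts were 25 with no filter, 4 with DESeq2, 0 without Csf3r cells (283 at an unadjusted p under 0.05) and 6 to 61 without 1 library.

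Shares changed sign in several settings, all TKO minus DKO in percentage points. For monocytes as a share of kept cells the difference was -0.053 without Csf3r cells. For monocytes as a share of monocytes and C1q macrophages it ran from -5.33 to 2.41 when 1 library was left out. The share of monocytes with 3 or more MHC class II UMIs was -3.72 after thinning and ran from -0.562 to 16.4 without 1 library. The share of monocytes with an Arg1 UMI ran from -20.1 to 2.13, and the share of monocytes with a Plac8 UMI from -8.78 to 10.3, with -4.77 at a marker sum of at least 5 and -1.11 without Csf3r cells. Vcan helped to choose the members, so its values here are a description. Among 79 named genes, 6 of 928 values reversed. On the log2 scale H2-Ab1 was 0.064, Slfn5 -0.033 and Vcan 0.57 without Csf3r cells. Without 1 library Cd74 ran from -0.86 to 0.23, H2-Ab1 from -1.18 to 0.36 and Vcan from -0.55 to 0.11. Of the others, 786 kept direction and side of the threshold, 133 passed it and 3 fell short.

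The labels do not say that replicate numbers pair the libraries; the replicate differences of the 2 genotypes correlated at 0.088 over 4390 genes, and under the block 0 genes were higher and 3 lower, with Chil1 lost. With 14 to 27 monocytes per library, depth limits calls to large changes: simulated 4-fold changes were recovered for 79% of genes in monocytes, and for 21% and 40% in the differences from dendritic cells and neutrophils. Unchanged genes were called too in these simulations: 13 in monocytes, 6 in the difference from dendritic cells and 4 in that from neutrophils. With 2-fold changes, the comparison with dendritic cells recovered 0% and called 3 unchanged genes.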
